A study of Mus musculus with 6 samples.

Results

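The genes described are 42 genes of mitosis and the spindle, measured in CD4+CD8+ double-positive cells of the thymus. They were chosen by name, from mitotic cyclins and kinases to condensin, with earlier results of these data known. A gene was measured where a probe set of the array named it and no other gene, which held for 40 of the 42 among 22180 genes in all. Ccnb1, the main mitotic cyclin B, and Ncapg, a condensin subunit, had no such probe set and were not analysed here. Each of the 40 measured genes had 1 probe set, so no choice among probe sets was needed.

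Each of 6 RNA samples was hybridised to an Affymetrix array of its own. The 3 wild-type arrays (DP_WT) and the 3 Ets1-/- arrays (DP_Ets1_KO) came from C57BL/6 mice that were 5 to 6 weeks old, and no treatment separated the groups. In both groups the thymus cells were crosslinked in formaldehyde and then enriched on magnetic beads, first for CD8 and then for CD4. Cohorts of litter mates served as replicates per the labels. Whether each array held 1 animal or a pool, and how the Ets1 allele was made, the labels do not say. Ets1 is an ETS-family transcription factor of lymphocytes. The labels name no Cre, promoter or cell type to which its loss was restricted.

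Double-positive thymocytes pass through very different states. Cells that have just made a working T-cell receptor beta chain divide rapidly as they acquire CD4 and CD8, and then leave the cell cycle, rearrange the alpha chain and wait for selection as small resting cells. Genes of mitosis are transcribed in G2 and M phase, so their level in a bulk sample follows the number of dividing cells as well as their RNA content. Cyclin-dependent kinase 1 with cyclins A and B drives entry into mitosis, the aurora and polo kinases build the spindle, the checkpoint proteins hold the anaphase-promoting complex until every kinetochore is attached, and kinesins move the chromosomes and divide the cell.

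Many promoters of these genes hold a pair of short elements, and 8 of them are shown to let their letters be compared. No relation of these elements to the differences between genotypes was tested. The cell cycle genes homology region (CHR, searched here as TTTGAA on both strands) is bound by the DREAM complex in resting cells and by the B-Myb and FoxM1 complexes in dividing cells. The CCAAT box (searched as CCAAT on both strands) is bound by NF-Y. These windows hold the 200 bases before the annotated start, from RefSeq on GRCm38.p6, written 5′ to 3′ along the gene, with matches to either motif in capitals. Cdk1, Ube2c, Cdc20, Kif11, Top2a and Mki67 hold both motifs in this stretch. Bub1b, the 1 gene that passed the test below, holds a CCAAT box here and its CHR match 41 bases after the start, and Birc5 holds neither.
Cdk1 (chr10:69352913-69353112, minus strand): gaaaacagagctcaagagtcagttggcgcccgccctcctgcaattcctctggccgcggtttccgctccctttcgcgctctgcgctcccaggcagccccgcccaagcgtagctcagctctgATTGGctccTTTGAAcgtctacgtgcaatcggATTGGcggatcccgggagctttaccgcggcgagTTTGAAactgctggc
Ube2c (chr2:164769729-164769928, plus strand): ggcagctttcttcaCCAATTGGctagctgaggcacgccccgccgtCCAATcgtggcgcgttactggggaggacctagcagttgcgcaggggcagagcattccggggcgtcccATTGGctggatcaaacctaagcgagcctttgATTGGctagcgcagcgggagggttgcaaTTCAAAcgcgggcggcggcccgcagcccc
Cdc20 (chr4:118437344-118437543, minus strand): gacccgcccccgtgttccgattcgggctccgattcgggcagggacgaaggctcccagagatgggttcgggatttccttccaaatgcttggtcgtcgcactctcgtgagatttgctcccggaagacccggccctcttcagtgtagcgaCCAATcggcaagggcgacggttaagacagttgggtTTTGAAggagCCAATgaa
Kif11 (chr19:37376182-37376381, plus strand): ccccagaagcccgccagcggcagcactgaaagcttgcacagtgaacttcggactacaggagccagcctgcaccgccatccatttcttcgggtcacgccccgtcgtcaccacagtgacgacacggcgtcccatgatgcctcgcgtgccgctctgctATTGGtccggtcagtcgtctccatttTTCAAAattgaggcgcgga
Top2a (chr11:99024190-99024389, minus strand): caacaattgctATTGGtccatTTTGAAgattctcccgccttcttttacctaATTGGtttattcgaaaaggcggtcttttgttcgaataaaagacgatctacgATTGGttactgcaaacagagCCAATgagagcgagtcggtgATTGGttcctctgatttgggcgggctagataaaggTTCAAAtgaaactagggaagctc
Mki67 (chr7:135716380-135716579, minus strand): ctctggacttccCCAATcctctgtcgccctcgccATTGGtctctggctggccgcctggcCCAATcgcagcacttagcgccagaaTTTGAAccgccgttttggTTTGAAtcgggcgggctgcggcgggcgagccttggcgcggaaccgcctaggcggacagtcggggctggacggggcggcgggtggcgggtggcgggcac
Bub1b (chr2:118598011-118598210, plus strand): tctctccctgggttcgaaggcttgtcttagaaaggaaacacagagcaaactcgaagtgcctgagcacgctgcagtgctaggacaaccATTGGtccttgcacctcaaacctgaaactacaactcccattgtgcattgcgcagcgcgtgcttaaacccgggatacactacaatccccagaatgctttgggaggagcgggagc
Birc5 (chr11:117849037-117849236, plus strand): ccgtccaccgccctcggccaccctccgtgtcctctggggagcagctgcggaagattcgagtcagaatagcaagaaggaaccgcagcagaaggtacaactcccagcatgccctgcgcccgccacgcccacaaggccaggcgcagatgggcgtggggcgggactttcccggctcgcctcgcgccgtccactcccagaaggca

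RefSeq promoter windows, which run from 250 bases before to 50 bases after a start, were found for 35 of the 42 genes, 37 windows in all. A CHR match lay in 29 of these 37 windows (78.4%), against 17.9% of all 32851 promoter windows in the table. A CCAAT box lay in 28 of 37 (75.7%), against 37.4% of all, and both lay in 25 of 37 (67.6%), against 6.95%. In 1 case a CHR match and a CCAAT match overlapped. The CHR matches clustered at the start, with 26 of 36 within 50 bases of it, and 59 of the 60 CCAAT matches lay upstream. A longer ETS motif, CCGGAAG on both strands, lay in 8 of 37 windows (21.6%), against 8.86% of all promoters, 28.7% of windows of the other mitosis genes and 14 of 56 windows of DNA replication genes. CHR matches were present in 41 of 101 windows of other mitosis genes (40.6%) and in 9 of 56 windows of DNA replication genes (16.1%). A CCAAT box lay in 59.4% and 55.4% of the windows of these 2 lists, and both motifs in 27.7% and 7.14%. Among measured genes with a window, the median log2 difference between genotypes was -1.25 in the 26 with a CHR match (range -1.64 to -0.69) and -1.11 in the 7 without (-1.47 to -0.80). It was -1.25 in the 24 with a CCAAT box and -1.15 in the 9 without, -1.20 in the 16 with 2 or more CCAAT boxes and -1.29 in the 17 with fewer, and -1.34 in the 7 with the ETS motif and -1.25 in the 26 without. Members with and without each motif overlapped in range. These matches describe the letters of the windows and no binding was measured here.

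**Figure D1:**
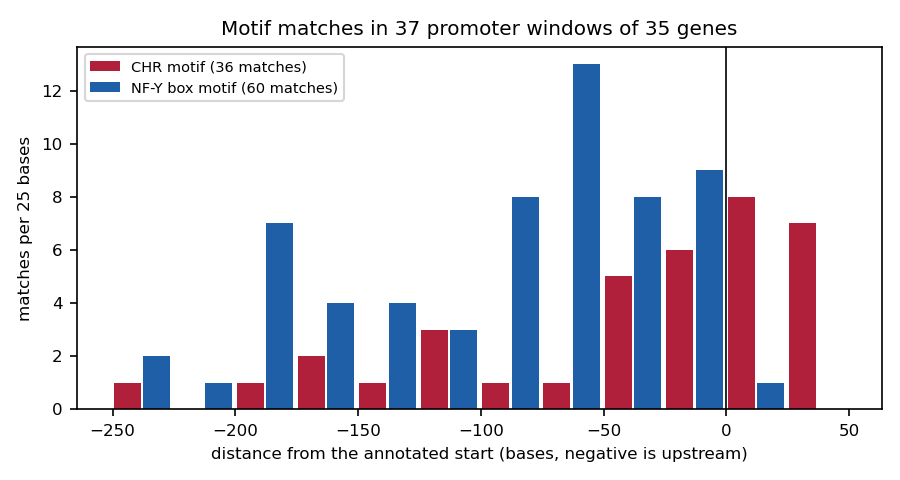
Matches to the CHR motif (red, 36) and to the NF-Y box (blue, 60) in the 37 promoter windows, counted per 25 bases of distance from the annotated start. The CHR matches gather around the start and the NF-Y boxes lie mostly upstream of it.

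Before the results, the arrays were compared. Array medians over all probe sets lay between 4.19 and 4.33 on the log2 scale, except for Ets1-/- replicate 1, at 3.66. The median log2 difference between genotypes over all genes was -0.22, and -0.01 once the arrays were centred on their medians. Differences below are Ets1-/- minus wild type on the deposited log2 values, so a value of -1 is a 2-fold lower signal, and medians of gene groups are also given relative to that of all genes. The targeted gene did not check the labels: Ets1 had 9.11, 9.32 and 9.17 in wild type and 9.27, 9.22 and 8.79 in Ets1-/-, a difference of -0.10 ± 0.23 (SE) that turned to 0.11 with median centring. Where its probes lie relative to the deletion is not given, so directions refer to the arrays as labelled. The coreceptor genes that define these cells were bright on all arrays, and Cd4, Cd8a and Cd8b1 differed by 0.13 ± 0.21, -0.09 ± 0.20 and -0.03 ± 0.21 (SE), with limma adjusted p of 0.794, 0.863 and 0.953. The last 2 turned positive with median centring, at 0.12 and 0.18. Rag2, which cuts the alpha-chain locus, differed by -0.29 ± 0.21 (adjusted p = 0.581).

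Mitosis and spindle genes had lower signals in Ets1-/- thymocytes, by a median of 2.38-fold. Of the 40 measured genes, 39 had a difference below 0, against 73.0% of all genes, and 38 a 95% interval wholly below 0, with a median of -1.25, or -1.03 relative to all genes. All 3 Ets1-/- values lay below all 3 wild-type values in 39 of the 40, a pattern found in 16.1% of all genes, and 32 of the 40 had a difference of -1 or less, against 3.50% of all genes. Only Bub1b passed the limma test adjusted over all 22180 genes, however, where 0.568% of all genes were called lower and 1.29% higher. None of the 40 was called higher. At an unadjusted limma p under 0.05, 38 of the 40 were lower, against 8.62% of all genes. The genes share their arrays, so their counts are not independent observations. These genes and the lists below were also chosen with earlier results of these data known, so the counts describe the lists and test nothing. In RNA of a whole population, fewer dividing cells and less RNA per dividing cell cannot be told apart.

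The shift was visible on each array. The median signal over the 40 genes was 7.91, 7.63 and 7.50 on wild-type replicates 1 to 3 and 5.89, 6.80 and 6.82 on Ets1-/- replicates 1 to 3. Taken relative to the median of all genes on the same array, these became 3.62, 3.29 and 3.09 against 2.15, 2.38 and 2.48, so the groups stayed apart relative to the array medians. Ets1-/- replicate 1 was the lowest of its group for 36 of the 40 genes, and wild-type replicate 1 the highest of its group for 32. Without Ets1-/- replicate 1 the median difference was -0.92, or -0.90 relative to all genes, and 39 genes still lay below 0, with a range of -1.95 to 0.11. The individual sizes depended more on that array: Aurka went from -1.40 to -0.75, Ndc80 from -1.50 to -0.88, Tpx2 from -1.51 to -0.98, Cdca8 from -1.28 to -0.83, Cenpa from -0.73 to -0.47 and Bub3 from -0.69 to -0.29.

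**Figure D2:**
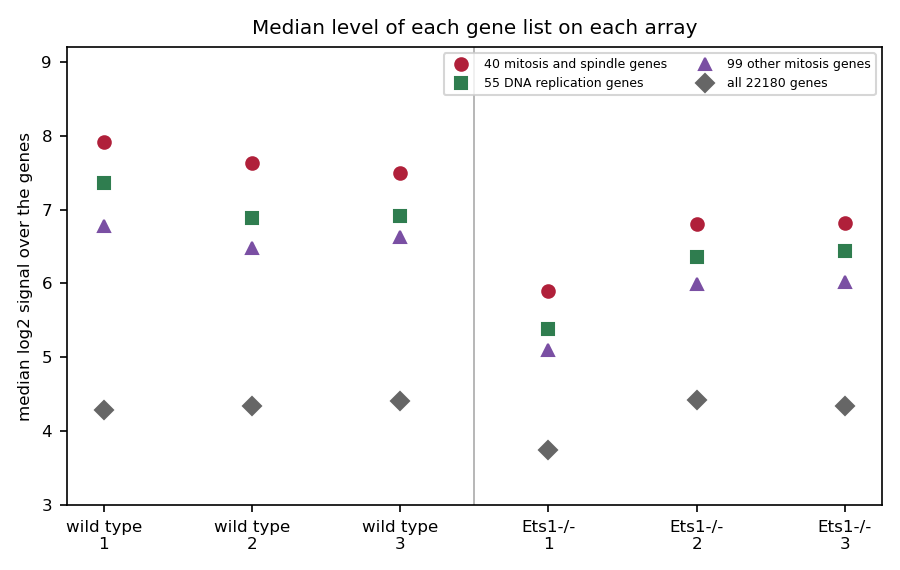
Median log2 signal over the 40 measured mitosis and spindle genes (circles), 55 DNA replication genes (squares), 99 other mitosis genes (triangles) and all 22180 genes (diamonds) on each of the 6 arrays. The mitosis and spindle medians are 7.50 to 7.91 in wild type and 5.89 to 6.82 in Ets1-/-, while the median of all genes is low only on Ets1-/- replicate 1.

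The group of mitotic cyclins and kinases, which here also holds the phosphatase Cdc25c, had a median difference of -1.37 over the 8 measured of 9. All lay below 0 and none was called. Cdk1, the kinase at the centre of the mitotic switch, had 7.93, 7.90 and 7.38 in wild type and 5.65, 6.42 and 6.99 in Ets1-/-, a difference of -1.39 ± 0.37 (SE; limma adjusted p = 0.134). The groups did not overlap, with Ets1-/- replicate 3 the closest to wild type. Its partner Ccnb2, cyclin B2, had 8.97, 9.01 and 8.70 against 7.19, 7.80 and 7.92, a difference of -1.26 ± 0.27 (adjusted p = 0.0711). Ccna2, cyclin A2, which acts in S phase and G2, had 8.95, 8.57 and 8.45 against 7.79, 7.79 and 7.83 and a smaller difference of -0.85 ± 0.23 (adjusted p = 0.144). The Ets1-/- values of Ccna2 were nearly the same on all 3 arrays, and with median centring its groups overlapped.

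Cdc25c, the phosphatase that activates Cdk1, had the most negative difference of the 40 in the fit reported, at -1.69 ± 0.39 (limma adjusted p = 0.0931). It had 6.49, 6.44 and 6.40 in wild type and 5.28, 3.82 and 5.16 in Ets1-/-. Here replicate 2, not replicate 1, was the lowest Ets1-/- array, at a value under the median of all probe sets (4.13). With a pseudocount of 16 added to linear signals its difference was -1.22, less than the -1.40 of Bub1b. Aurkb, the aurora kinase of the chromosomal passenger complex, had 7.08, 6.99 and 6.74 against 4.32, 5.69 and 5.92 (-1.63 ± 0.42, adjusted p = 0.125). Aurka, the aurora kinase of the spindle poles, had 7.55, 7.37 and 6.85 against 4.56, 6.83 and 6.17 (-1.40 ± 0.55, adjusted p = 0.329), so that Ets1-/- replicate 2 lay just under the lowest wild-type value, and the groups overlapped with median centring. The polo kinase Plk1 differed by -1.35 ± 0.33 and Plk4, which starts centriole duplication, by -1.11 ± 0.33, both with groups apart.

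The 3 partners of Aurkb in the chromosomal passenger complex, which corrects faulty attachments and guides cytokinesis, all had differences below 0. Birc5 (survivin) averaged 8.31 ± 0.27 in wild type against 7.20 ± 0.45 in Ets1-/- (SD, n = 3 each), Incenp, the scaffold, 7.55 ± 0.13 against 6.54 ± 0.46, and Cdca8 (borealin) 7.45 ± 0.22 against 6.17 ± 0.83. Their differences were -1.11, -1.02 and -1.28, and none passed the test (limma adjusted p = 0.141, 0.160 and 0.219).

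The spindle checkpoint and the anaphase machinery held the 1 called gene. Bub1b, which encodes BubR1, the checkpoint protein that restrains Cdc20, had 8.11, 7.93 and 7.91 in wild type and 6.01, 6.69 and 6.58 in Ets1-/-. It fell by 1.56 ± 0.26 (SE; 95% interval -2.16 to -0.97; limma adjusted p = 0.0258), a 2.95-fold change with a gap between the groups wider than the range of either. Leaving out Ets1-/- replicate 1 kept its call (-1.35, adjusted p = 0.0259), while it was lost without any other array: the adjusted p was 0.107, 0.0922 and 0.0868 when wild-type replicate 1, 2 or 3 was omitted, and 0.0630 and 0.0722 when Ets1-/- replicate 2 or 3 was. The labels do not say whether samples of the same number shared a litter. With the replicate number as a block the call was lost too (adjusted p = 0.0738). In that fit 0 of the 40 genes were called, where 0.28% of all genes were called lower. The size stayed between -1.69 and -1.32 in all settings run.

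The other checkpoint genes were less uniform. Ttk (Mps1), the kinase that starts checkpoint signalling, had 6.66, 6.10 and 6.55 against 4.91, 5.47 and 5.16 (-1.26 ± 0.26, adjusted p = 0.0663), and the kinase Bub1 differed by -1.07 ± 0.29 (adjusted p = 0.143). Mad2l1 (Mad2), which with BubR1 and Bub3 forms the inhibitor of Cdc20, had 7.64 ± 0.30 and 6.84 ± 0.32 (SD, n = 3 each), a difference of -0.80. Bub3, the third part of that inhibitor, had 8.41, 8.65 and 8.51 in wild type and 7.01, 8.11 and 8.36 in Ets1-/-. Its groups did not overlap, but the 95% interval of its difference ran from -1.53 to 0.15, and without Ets1-/- replicate 1 the difference was -0.29.

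Downstream of the checkpoint, Cdc20, the activator of the anaphase-promoting complex, had 8.05, 7.64 and 7.63 against 5.92, 6.54 and 6.82 (-1.34 ± 0.30, adjusted p = 0.0777). Ube2c, the ubiquitin-conjugating enzyme of that complex, was nearly constant in wild type at 9.40, 9.38 and 9.36 and had 7.91, 8.25 and 8.64 in Ets1-/- (-1.11 ± 0.25, adjusted p = 0.0858). Espl1 (separase), which cuts the last cohesin between sister chromatids, had 5.66, 5.50 and 5.63 against 3.61, 5.05 and 3.92 (-1.40 ± 0.38, adjusted p = 0.141). Its Ets1-/- replicates 1 and 3 lay under the median of all probe sets (4.13). With a pseudocount of 16 added to linear signals its difference was -0.88. The 8 genes of this group had a median difference of -1.19.

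The 10 genes of kinesins, spindle and cytokinesis had a median difference of -1.32, all below 0 and none called. Kif15, a kinesin that helps hold the spindle poles apart, came closest to the threshold, with 7.77, 7.49 and 7.52 in wild type and 5.65, 6.45 and 6.37 in Ets1-/- (-1.44 ± 0.28, adjusted p = 0.0512). Kif11 (Eg5), the main motor that separates the poles, had 8.76, 8.57 and 8.63 against 6.48, 7.43 and 7.55 (-1.50 ± 0.32, adjusted p = 0.0711). For both, the Ets1-/- arrays lay about 1 log2 unit or more below wild type even without replicate 1, at -1.18 and -1.16, and both were then called (adjusted p = 0.0429 and 0.0384). Kif4, a chromosome-arm motor, differed by -1.64 ± 0.39, Kif23, a motor of the central spindle, by -1.24 ± 0.27, and Kif20a, which carries the passenger complex to the midzone, by -1.01 ± 0.27. Kif2c, a kinesin that depolymerises microtubules at centromeres, had 6.66, 6.32 and 6.02 against 5.38, 5.83 and 5.59, the smallest difference of the group at -0.73 ± 0.26. Its groups overlapped with median centring.

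Among the spindle and cytokinesis proteins that are no motors, Tpx2, the activator of Aurka, had 8.14, 7.95 and 7.51 in wild type and 5.29, 6.85 and 6.93 in Ets1-/- (-1.51 ± 0.45, adjusted p = 0.193). Nusap1, which bundles microtubules near chromosomes, had 8.95 ± 0.11 and 7.55 ± 0.61 (SD, n = 3 each), a difference of -1.40. Prc1, which bundles the central spindle, differed by -0.97 ± 0.28, and Anln (anillin), the scaffold of the contractile ring, by -1.15 ± 0.27. The last 3 had groups apart and adjusted p of 0.0938, 0.179 and 0.0993.

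The 6 kinetochore genes had a median difference of -1.27. Ndc80, the microtubule-binding core, had 8.04, 7.53 and 8.11 in wild type and 5.16, 7.11 and 6.92 in Ets1-/- (-1.50 ± 0.51, adjusted p = 0.250) and Ets1-/- replicate 1 far below the other two. Its partners in the same complex, Nuf2 and Spc25, differed by -1.47 ± 0.39 and -1.25 ± 0.25 (adjusted p = 0.133 and 0.0594). The kinetochore motor Cenpe and the large coiled-coil protein Cenpf differed by -1.29 ± 0.33 and -1.04 ± 0.30. Cenpa, the histone H3 variant that marks centromeres, had 6.95, 6.88 and 7.20 against 5.75, 6.39 and 6.70, a smaller difference of -0.73 ± 0.29 whose highest Ets1-/- value lay just under the lowest wild-type value.

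The genes of chromosome structure were the only group with a member that did not lie below 0. Top2a, the topoisomerase that untangles sister chromatids, had 9.73, 9.42 and 9.59 in wild type and 8.44, 8.67 and 8.53 in Ets1-/- (-1.03 ± 0.22, adjusted p = 0.0674). The groups were far apart and the 3 arrays of each were close together. Mki67, which encodes the proliferation marker Ki-67, had 9.35, 9.17 and 9.42 against 7.62, 8.64 and 8.23 (-1.15 ± 0.30, adjusted p = 0.129). The condensin subunits Ncapd2 and Smc2 averaged 8.58 ± 0.08 and 8.41 ± 0.27 in wild type, against 7.50 ± 0.40 and 7.66 ± 0.18 in the knockout (SD, n = 3 each), differences of -1.08 and -0.75.

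Smc4, the partner of Smc2 in the condensin ring, was the exception. It had 10.09, 10.04 and 10.06 in wild type and 10.13, 10.23 and 10.12 in Ets1-/-, a difference of 0.10 ± 0.20 (SE; 95% interval -0.37 to 0.57; limma adjusted p = 0.848). All 3 Ets1-/- values lay above all 3 wild-type values by a small margin, a pattern found in 5.76% of all genes, but the groups overlapped with quantile normalization. The value was above 0 in all 18 settings run, from 0.04 to 0.31, and was called in none. The signal filters, the intensity trend, the replicate block and the averaging of probe sets leave it unchanged by construction. The difference between Smc4 and its partner was not tested.

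**Figure D3:**
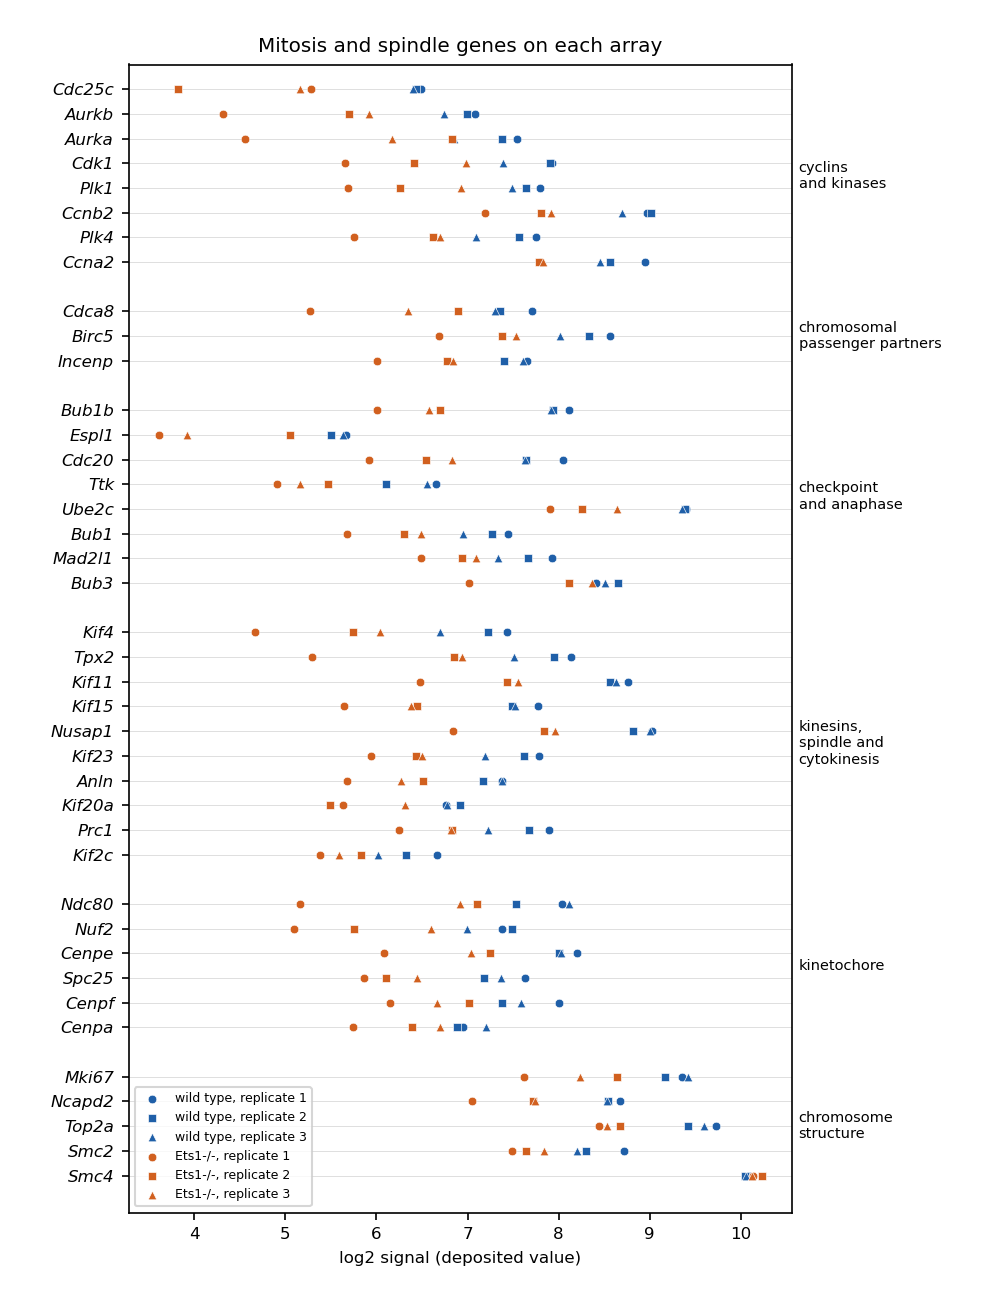
Deposited log2 signal of the 40 measured genes on each array, by role, with wild type in blue, Ets1-/- in orange and a marker shape per replicate. The orange points lie left of the blue points in every row but that of Smc4, and Ets1-/- replicate 1 (orange circles) is most often the lowest.

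**Figure D4:**
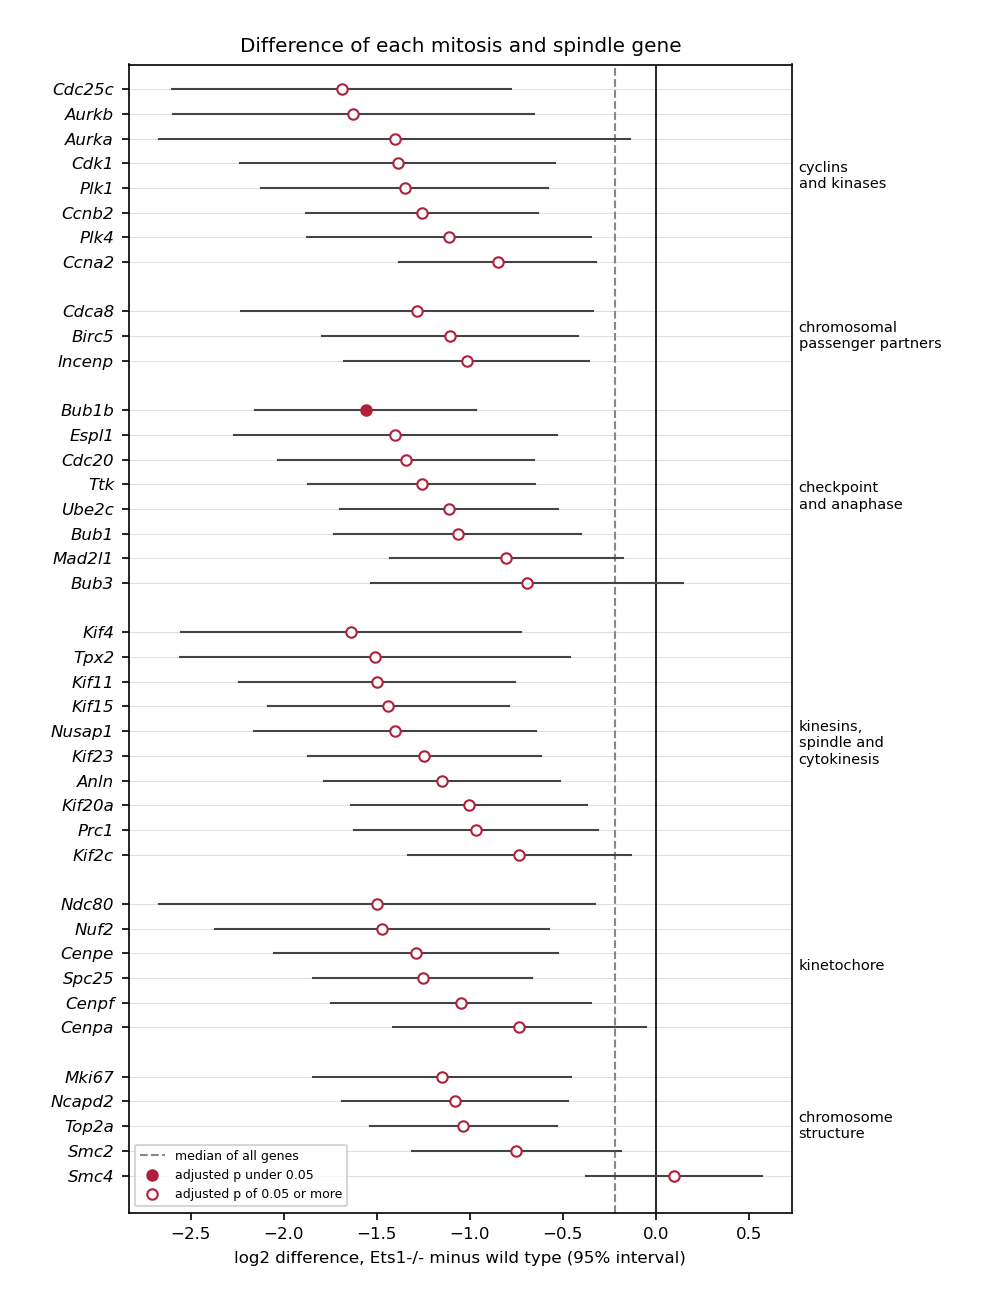
Log2 difference of each gene, Ets1-/- minus wild type, with limma's 95% interval, the line at 0 and the median of all genes at -0.22 (dashed). Intervals of 38 genes lie below 0 and those of 33 below the dashed line, and only Bub1b is filled as called.

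The number of genes called depended on the setting. The 39 genes other than Smc4 that entered each fit lay below 0 in all 18 settings. The signal filters, the intensity trend, the replicate block and the averaging of probe sets leave the differences of these genes unchanged. Those settings could not change a direction. Only the scalings, the pseudocount, the array weights and the omitted arrays could. With the arrays centred on their medians 12 of the 40 were called lower, against 0.902% of all genes, and with quantile normalization 20, against 1.28%. Cyclic loess gave 15 (1.06% of all genes), array weights 18 (1.78%), a pseudocount of 16 added to linear signals 26 (1.91%), and quantile normalization with that pseudocount 32 (2.69%). An intensity trend with a robust prior gave 32 (2.50%). Restricting the test to genes above the median signal gave 14 of 40 (2.27%), and above the 75th percentile 22 of 38 (4.96%). Averaging the probe sets that name a gene could not change the values of the 40, which have 1 probe set each. The count there was 1 (0.564%). When wild-type replicate 1, 2 or 3 was omitted the count was 0 each time (0.194%, 0.171% and 0.198% of all genes), with adjusted p of Bub1b as given above. Omitting Ets1-/- replicate 1, 2 or 3 left 3, 1 and 0 (0.464%, 0.203% and 0.397%). Of all calls, 69.5% were higher in the fit reported and 55.9% with quantile normalization and the pseudocount. The 3 were Bub1b, Kif11 and Kif15, and the 1 was Espl1.

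Genes of the same process outside these 42 lay mostly below 0 as well. Of 99 measured other mitosis genes, 91 had a difference below 0, against 73.0% of all genes, with a median of -0.94 against -0.22, and 7 were called lower and 0 higher, where 0.568% and 1.29% of all genes were. Groups were apart, with Ets1-/- lower, for 63 of the 99, against 16.1% of all genes. Knl1, the kinetochore scaffold that recruits Bub1 and BubR1, had 8.16, 7.88 and 7.93 in wild type and 6.20, 6.50 and 6.45 in Ets1-/- and fell by 1.61 ± 0.22 (SE; adjusted p = 0.0122). Trip13, the ATPase that takes Mad2 complexes apart, fell by 2.11 ± 0.29, and Cdca5 (sororin), which protects cohesin, fell by 1.93 ± 0.33. The spindle-pole protein Aspm fell by 1.43, the kinesin Kif14 fell by 1.45 and Gtse1, a microtubule-binding protein of G2, fell by 1.57. The 8 of the list above 0 ran from 0.01 to 0.40 and were Zwint, Anapc13, Pttg1, Cdc26, Cenpw, Anapc11, Cenpq and Ncaph2.

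S-phase genes also lay mostly below 0. Of 55 measured DNA replication genes, 52 lay below 0, against 73.0% of all genes, with a median of -0.93 against -0.22. Of the 55, 2 were called lower and 0 higher, where 0.568% and 1.29% of all genes were. Clspn (claspin), an adaptor of the replication checkpoint, had 7.70, 6.88 and 7.08 against 4.95, 5.26 and 5.08 and fell by 2.12 ± 0.28 (adjusted p = 0.00937), and Uhrf1, which maintains DNA methylation at the fork, fell by 2.10 ± 0.39 (adjusted p = 0.0450). The ligase Lig1 and the origin factor Orc1 had differences of -1.41 and -1.28 without passing the test (adjusted p = 0.0687 and 0.0896). Whether the mitosis genes differed from the replication genes in size was not tested.

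**Figure D5:**
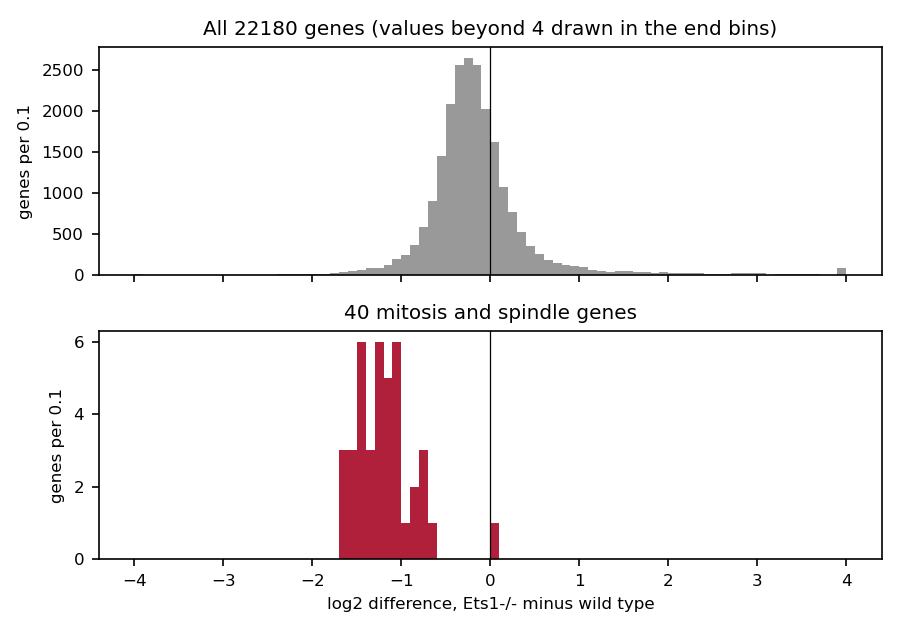
Number of genes per 0.1 of log2 difference, Ets1-/- minus wild type, for all 22180 genes (top) and for the 40 measured mitosis and spindle genes (bottom). The 40 genes run from -1.69 to 0.10 with a median of -1.25, in the lower tail of all genes.

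Markers of other cells and stages moved between the same arrays. Over all genes 1.29% were called higher and 0.568% lower, which is the background for the counts of each marker list. Of 17 macrophage and monocyte markers 13 were called higher and 0 lower, and all 17 lay above 0. Their summed linear signal was 857 to 1046 in wild type and 4348 to 5951 in Ets1-/-. Csf1r, the macrophage growth factor receptor, rose by 3.31 ± 0.28 (SE; adjusted p = 0.0014). Of 12 dendritic-cell markers 5 were called higher, 8 lay above 0 and 4 below (lowest -1.15), with a median difference of 0.44. Their summed signal was 496 to 548 in wild type and 3124 to 3420 in Ets1-/-. It includes H2-Ab1, H2-Eb1 and H2-Aa, with Ets1-/- means of 10.07, 9.14 and 10.12, so the higher sum is not a rise of the whole list. Of 11 B-cell markers 5 were called higher, 10 lay above 0 and 1 below (summed signal 1449 to 1672 against 2397 to 3410). Of 8 plasma-cell markers 3 were called higher and all 8 lay above 0 (257 to 276 against 806 to 2314). Among all genes, 73.0% lay below 0. All Ets1-/- values lay above all wild-type values for 9 of the 11 and 5 of the 8, against 5.76% of all genes. Of 9 natural killer markers 2 were called higher (231 to 373 against 672 to 1172), while 3 lay below 0 (lowest -0.56). All Ets1-/- values lay above all wild-type values for 4 of the 9, against 5.76% of all genes, and below them for 2, against 16.1%. In these 5 lists 0 were called lower. In wild type 5 of the 17 macrophage, 2 of the 12 dendritic, 9 of the 11 B-cell, 3 of the 8 plasma-cell and 5 of the 9 natural killer markers lay below the median of all probe sets on every array. In Ets1-/- that count was 0, 1, 2, 0 and 3. The part of these cells in the lower mitosis signal was not tested.

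Genes of the earlier thymocyte stages, among which rapidly dividing cells are found, did not all move the same way. Of 11 markers of double-negative and immature single-positive cells 7 lay above 0 and 4 below (lowest -0.94). Of the 11, 2 were called higher and 0 lower, against 1.29% and 0.568% of all genes. At an unadjusted limma p under 0.05, 5 were higher and 1 lower, against 4.54% and 8.62% of all genes. Their summed signal, which follows the brightest genes, was 419 to 527 in wild type and 1072 to 1186 in Ets1-/-. Il2ra (CD25) had 5.03, 6.52 and 5.10 against 8.75, 8.75 and 8.65 and rose by 3.17 ± 0.40 (adjusted p = 0.00864), and Cd44 rose by 2.14 ± 0.23 (adjusted p = 0.00353). Ptcra, the pre-T-cell receptor chain, which was placed on the double-positive list, rose by 1.50 ± 0.25 (adjusted p = 0.0282). Il2ra and Cd44 are also made by other cells, mature T cells and myeloid cells among them, and which cells gave these signals was not tested. Of the 13 measured double-positive markers, 2 were called lower (Tdrd5 fell by 2.55 and Endou fell by 2.24) and 1 higher, against the same adjusted shares of all genes. The median difference of the 13 was -0.15, or 0.07 relative to all genes. Their summed signal was 17530 to 18328 in wild type and 14555 to 15953 in Ets1-/-. It includes Tdrd5, with means of 10.54 and 7.99, and Endou, with 9.71 and 7.48. Of the 13, 10 lay below 0 and 3 above, where 73.0% of all genes lay below 0. All Ets1-/- values lay below all wild-type values for 7, against 16.1% of all genes, and above them for 2, against 5.76%. The erythroid, neutrophil and thymic stroma lists had 6, 10 and 11 measured genes and 0 called by limma, with 0, 1 and 1 lower and 0 higher at an unadjusted p under 0.05, where 8.62% of all genes were lower and 4.54% higher. Their summed signals were 84.2 to 115, 124 to 156 and 324 to 438 in wild type and 48.6 to 85.8, 88.2 to 119 and 165 to 343 in Ets1-/-.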

How the data were processed

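Per the labels, RNA of 3 wild-type and 3 Ets1-/- samples was extracted with TRIzol, labelled with an Affymetrix IVT kit and hybridised to 1 array each. The authors deposited log2 values for 41345 probe sets. The log2 scale was read from their range, -15.86 to 16.36. The submitters' processing notes name affy, with no version, and neither they nor the labels give the background correction or normalization. Array number limits the precision.

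Probe sets were named through the platform annotation: 23521 named 1 gene, 1814 several and 16010 none here, and 23328 matched RefSeq (GRCm38.p6) by gene identifier. Of several probe sets for a gene, that with the highest mean of the 6 arrays was kept, unfiltered. The limma package (3.58.1, under R 4.3.3) fitted all 22180 genes with lmFit and eBayes, two-sided and without covariates. P was adjusted by Benjamini-Hochberg with a threshold of 0.05, and SE and 95% intervals are moderated. The labels name cohorts of litter mates as replicates, without saying which samples shared a litter, so p-values measure the spread between these samples. Promoter windows came from RefSeq. Alternatives were other scalings, filters, variance models, a pseudocount of 16, a replicate block and the omission of each array. The fit was tested on simulated data. Software for tables was Python 3.11.15 and pandas 2.3.3; for plots, matplotlib 3.10.9.

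The 42 genes and all lists were chosen with earlier results of these data known. All 42 are named; of the other mitosis and DNA replication lists, the 6 and 4 genes with the smallest p; of each marker list at most 3; and Ets1, Cd4, Cd8a, Cd8b1 and Rag2 whatever their result. The 8 printed promoters and the genes above 0 or called outside these rules were chosen after their values were seen. Of 106 other mitosis and 58 DNA replication genes, 99 and 55 were measured.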

Additional observations from a re-analysis of the deposited data

How the results depend on the processing

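The number of mitosis and spindle genes called lower was 1 in the fit reported. It was 14 and 22 with only genes above the median and the 75th percentile of signal, 12 with median centring, 20 with quantile normalization, 15 with cyclic loess, 32 with an intensity trend and robust prior, 18 with array weights, 26 with a pseudocount of 16, and 32 with quantile normalization and that pseudocount. For the other mitosis genes (7) these counts were 22, 24, 19, 21, 19, 35, 22, 29 and 41, in the same order. For the DNA replication genes (2) they were 4, 8, 5, 7, 6, 15, 7, 9 and 17. Of all genes 2.27%, 4.96%, 0.902%, 1.28%, 1.06%, 2.50%, 1.78%, 1.91% and 2.69% were called lower in these settings, and 0.568% in the fit reported. The filters left 95 and 65 other mitosis genes, and 55 and 45 DNA replication genes. Leaving out 1 array gave 0 to 3, 1 to 5 and 1 to 2, where 0.171% to 0.464% of all genes were called lower. Same-numbered samples did not deviate together (r = -0.07, -0.01 and -0.05), so the numbers were not taken as pairs. With the replicate number as a block the counts were 0, 2 and 1, where 0.28% of all genes were called lower, and Bub1b had an adjusted p of 0.0738. Of the single-gene values of the 40 genes, 487 kept their direction and side of the threshold, 185 newly passed it, 6 no longer did and 0 changed sign. The filters, the intensity trend, the block and the averaging of probe sets leave these differences unchanged, so they could not change a sign. Cd8a was 0.12 with median centring. Cd8b1 was 0.18 with median centring, 0.0519 with quantile normalization, 0.0517 with that and the pseudocount, 0.00127 with array weights and -0.0963 to 0.0176 with 1 array left out. Ets1 was 0.11 with median centring and -0.194 to 0.0489 with 1 array left out. The cause was not tested. With 3 arrays a group, the median standard error of the 40 differences was 0.295.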
